A study of Arabidopsis thaliana with 64 samples.

Results

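Roots of Arabidopsis thaliana supplied with nitrate and ammonium together were compared with roots kept without nitrogen, in media that held no abscisic acid (ABA). The members are the 16 arrays of the series' 64 whose labels give either 0.5 mM nitrate with 0.5 mM ammonium (8 arrays) or neither ion (8 arrays), each with ABA at 0 µM. In each of these media, 2 arrays came from roots without added hormone, 2 from roots with 500 nM indole-3-acetic acid (IAA, an auxin), 2 with 500 nM kinetin (the cytokinin, labelled CK) and 2 with both hormones. The labels place all plants in hydroponic culture with sucrose and ammonium succinate, followed by a day without nitrogen and then 4 h in the treatment medium, so both media were applied to roots already deprived of nitrogen. Mock media carried KCl and DMSO. The other groups used below are 8 arrays with 1 mM nitrate only, 8 with 1 mM ammonium only, and 16 arrays of the same 2 nitrogen media with 1 µM ABA. Whole roots were extracted, so fewer cells of a type and less RNA per cell cannot be told apart. The genotype is not given in the sources used here.

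Plant roots take up nitrate and ammonium through separate transporters. Nitrate is reduced to nitrite and then to ammonium, which glutamine synthetase and glutamate synthase build into amino acids, at a cost in reducing power that the oxidative pentose phosphate pathway supplies in roots. Nitrate is also a signal in its own right: within minutes to hours it raises genes for its own uptake and reduction and the GARP-family repressors of the nitrogen starvation response. In nitrogen-starved roots, high-affinity transporters and CEP peptides rise, and shoot-made CEPD polypeptides, which belong to the CC-type glutaredoxins of land plants, carry the demand for nitrogen back to the root.

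Each array measured 22746 non-control probe sets by fluorescence intensity, in arbitrary units, and the median intensity of the 16 arrays lay between 123 and 271. The labels do not say that the 2 replicates of a group came from separate cultures, so all p-values measure only the spread between these arrays, which may be technical. Duplicate arrays of the groups in this comparison correlated with Pearson's r between 0.724 and 0.88 across probe sets. This correlation was not computed for duplicates of the other groups, which also enter the shared estimate of the spread. Of the 6 arrays in the series with the most extreme medians, 3 were replicate 2 arrays of mixed nitrogen without ABA. Among the arrays without nitrogen and without ABA there were 0. The rest included replicate 2 of mixed nitrogen with kinetin and ABA, and replicate 1 without nitrogen with IAA, kinetin and ABA. Replicate 2 of nitrate only with IAA and no ABA, used below in the comparison with nitrate, had the highest median of the 6 (log2 8.25). The log2 ratio of 3′ to 5′ actin probe sets, a sign of RNA quality, averaged 6.22 ± 0.86 (SD, n = 8) in mixed nitrogen and 6.78 ± 1.10 (SD, n = 8) without nitrogen (two-sided exact permutation p = 0.276, 0.436 adjusted over 4 quality measures). The GAPDH ratio differed more, at 4.72 ± 0.99 and 5.67 ± 1.37 (two-sided exact permutation p = 0.137, 0.436 adjusted). The UBQ ratio was 3.00 ± 0.61 and 2.94 ± 0.53 (two-sided exact permutation p = 0.815). The 3′ actin signal exceeded the 5′ signal on all 16 arrays, with lowest log2 ratios of 4.61 and 5.60. These tests compare the 2 media and do not show that the RNA was intact. Only 13513 of the probe sets had exactly 1 gene name, so many well-known nitrogen genes were measured by probe sets that carry no name here. Among tissue markers, EXPA7 and EXPA18, the root-hair expansins, had median intensities without nitrogen of 862 and 878. RCA, the Rubisco activase of green tissue, read 272 on its own probe set, beside a highest array median of 271. Intensities of different probe sets are not directly comparable, so these values do not check the tissue label. None of the 14 markers of other root tissues was named.

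Mixed nitrogen for 4 h changed 194 of 22746 probe sets (0.853%), of which 130 were higher (0.572%) and 64 lower (0.281%) than without nitrogen. The test was limma on log2(intensity + 1), averaged over the 4 hormone media, at a Benjamini-Hochberg adjusted p under 0.05, and 174 of the 194 differed at least 2-fold. An unadjusted p under 0.05 was reached by 1933 probe sets. The median over all probe sets was 0.11 on the log2 scale and was -0.01 once each array's median entered the fit and 0.00 after quantile normalization, so small positive differences hold only relative to that shift. Probe sets whose 8 mixed-nitrogen arrays lay wholly apart from the 8 without nitrogen numbered 62 (0.273%), with 48 higher (0.211%) and 14 lower (0.0615%). Of the 130 raised probe sets 42 were separated in this way, and of the 64 lowered 11 were. The changed probe sets were brighter than most: their mean log2 intensity had a median of 9.61 among the raised and 9.94 among the lowered, against 7.30 over all. A name was available for 64 raised and 34 lowered probe sets, from which the 12 largest differences in each direction are described. A fold below is that of the mean log2 values, and a log2 difference is mixed nitrogen minus no nitrogen with its standard error over 8 arrays against 8.

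Raised genes with a known place in metabolism or nitrogen transport included AT5G62720, AT1G80380, PGM and the nucleotide enzyme AT1G30820. AT5G62720, an HPP-family protein of the chloroplast envelope that carries nitrite, had intensities of 253 to 458 (median 333) without nitrogen and 1247 to 2674 (median 1827) with mixed nitrogen. The groups did not overlap, and the gene rose 5.36-fold (log2 difference 2.42 ± 0.24, adjusted p = 1.54e-08, limma). AT1G80380, the glycerate kinase that closes the photorespiratory cycle in leaves, ran from 31.4 to 643 (median 467) without nitrogen and from 2148 to 6069 (median 3585) with it. It rose 11.8-fold (3.56 ± 0.37, adjusted p = 6.08e-08), again with no overlap, although 1 array without nitrogen or hormone stood far below the other 7. PGM (AT1G78050), named a phosphoglycerate/bisphosphoglycerate mutase, overlapped at 32.9 to 181 (median 104) and 117 to 992 (median 550). Its log2 difference was 2.40 ± 0.37 (adjusted p = 9.22e-05). AT1G30820, a CTP synthase, which takes its amino group from glutamine, ranged from 284 to 621 (median 431) and from 1053 to 3094 (median 2110). It rose by 2.19 ± 0.27 on the log2 scale (adjusted p = 1.88e-06) without overlap. It lies outside the 12 largest and was named through its rise in the medium with both hormones.

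**Figure D1:**
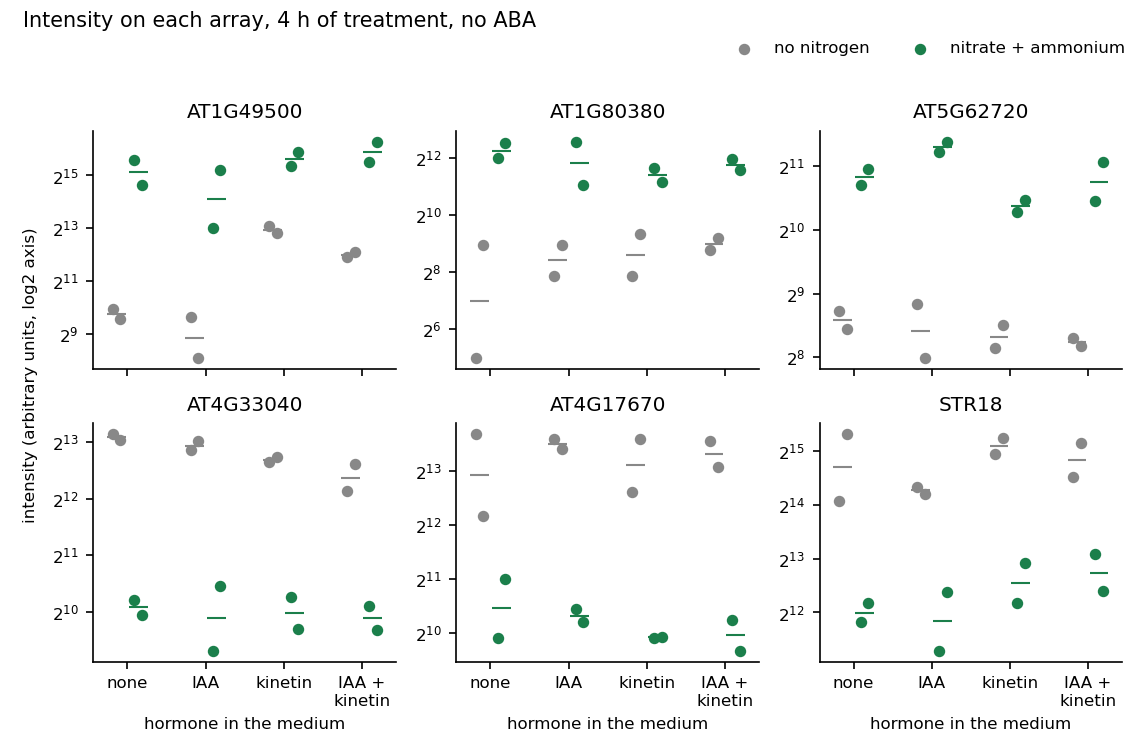
Intensity of 6 genes on each of the 16 arrays, on a log2 axis in arbitrary units, by hormone in the medium; points are arrays, grey without nitrogen and green with nitrate and ammonium, and dashes are the means of 2 arrays on the log2 scale. In AT1G80380, AT5G62720, AT4G33040, AT4G17670 and STR18 the colours do not overlap over all 4 media, while in AT1G49500 the arrays without nitrogen reach 8633 with kinetin and the lowest mixed-nitrogen array is 8181.

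The largest named increase belonged to AT1G49500, which has no symbol in the annotation used. Its 8 arrays without nitrogen read 983 and 750 without hormone, 798 and 268 with IAA, 8633 and 7224 with kinetin, and 3802 and 4376 with both. With mixed nitrogen the corresponding pairs were 49879 and 25635, 8181 and 38294, 42157 and 60000, and 46843 and 79377. The gene rose 19.7-fold (log2 difference 4.30 ± 0.39, adjusted p = 3.55e-09), and within each hormone medium every mixed-nitrogen array exceeded every array without nitrogen. The overlap of the 8 with the 8 came from 1 kinetin array without nitrogen, at 8633, which exceeded 1 IAA array with mixed nitrogen, at 8181. AT5G10210 went from 56.2 to 196 (median 100) to 448 to 2340 (median 1235), a rise of 9.97-fold (3.32 ± 0.50, adjusted p = 7.51e-05) with no overlap. AT3G07350 likewise did not overlap, at 38.3 to 260 (median 81.5) and 430 to 855 (median 535), and rose 6.34-fold (2.67 ± 0.30, adjusted p = 3.41e-07). Of the 12 raised genes, these 2 together with AT1G80380 and AT5G62720 were the 4 whose groups did not overlap. Over all probe sets 0.211% were separate and higher. The 12 were chosen for large differences on these arrays, so the count is a description.

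The other raised genes overlapped between the groups. AT3G15440 ranged from 4.79 to 195 (median 77.2) without nitrogen and from 164 to 696 (median 340) with it, with a log2 difference of 2.65 ± 0.33 (adjusted p = 1.83e-06). Its neighbour AT3G15450, with no gene between them, also passed, at 2.05. AT1G67910 ranged from 172 to 3227 (median 568) and from 1049 to 7155 (median 3740), with a difference of 2.49 ± 0.33 (adjusted p = 5.1e-06). AT1G72060 ranged from 343 to 2746 (median 807) and from 2008 to 13047 (median 6796), with a difference of 2.83 ± 0.61 (adjusted p = 0.0088). BUBR1, a protein of the spindle checkpoint, ranged from 11.7 to 119 (median 22.6) and from 42.2 to 322 (median 200), with a difference of 2.38 ± 0.49 (adjusted p = 0.00533). AT4G18375, an RNA-binding protein with KH domains, ranged from 7.08 to 67.1 (median 13) and from 28.1 to 352 (median 106), with a difference of 2.68 ± 0.49 (adjusted p = 0.00117). Without the 6 arrays of extreme median, AT1G72060 (2.47, adjusted p = 0.118) and AT4G18375 (2.11, adjusted p = 0.114) did not pass, nor did they without the medium with both hormones (2.56 and 2.08). BUBR1 did not pass without the medium lacking hormone (1.96, adjusted p = 0.122). Of the 12 raised genes, 7 averaged below the median probe set of the dimmest array without nitrogen, and AT4G18375 did so in both media. Their folds depend on the pseudocount: with 64 in place of 1 the log2 differences were 1.65 for AT3G15440, 1.21 for BUBR1, 1.10 for AT4G18375 and 1.78 for AT4G15690, a glutaredoxin described below.

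The lowered genes included glutaredoxins, zinc-finger adaptors of the energy sensor SnRK1 and a sulfurtransferase. AT5G11930, a CC-type glutaredoxin, ranged from 4094 to 15593 (median 6182) without nitrogen and from 365 to 2199 (median 615) with mixed nitrogen. It fell 9.8-fold (log2 difference -3.29 ± 0.37, adjusted p = 3.58e-07) and its groups did not overlap. AT4G17670, a FCS-like zinc finger (FLZ) protein of the kind that binds SnRK1, went from 4598 to 13224 (median 11558) down to 810 to 2042 (median 1074). It fell 8.34-fold (-3.06 ± 0.29, adjusted p = 8.6e-09), also with no overlap. AT4G33040, another CC-type glutaredoxin, had the smallest adjusted p of the 194 probe sets. Its 8 arrays without nitrogen lay at 4470 to 8949 (median 7062) and its 8 with mixed nitrogen at 641 to 1413 (median 1047), a 6.94-fold fall (-2.80 ± 0.22, adjusted p = 3.22e-10). STR18, a rhodanese-type sulfurtransferase, went from 17306 to 40614 (median 27593) down to 2498 to 8654 (median 4994). It fell 5.43-fold (-2.44 ± 0.30, adjusted p = 1.88e-06) without overlap.

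AT1G22160, a second FLZ protein, ranged from 528 to 1364 (median 755) and from 17.7 to 382 (median 187), and AT1G64590 from 1178 to 4796 (median 2370) and from 292 to 1009 (median 767). Neither overlapped. AT1G22160 fell by 2.70 ± 0.53 (adjusted p = 0.00285) and AT1G64590 by 1.84 ± 0.19 (adjusted p = 4.01e-08) on the log2 scale. With these, 6 of the 12 lowered genes had separate groups, beside 0.0615% of all probe sets that were separate and lower. The 12 were chosen for large differences on these arrays, so the count is a description. AT3G62960, a CC-type glutaredoxin, ranged from 323 to 1369 (median 780) and from 29.1 to 498 (median 238), with a log2 difference of -2.05 ± 0.42 (adjusted p = 0.00427). AT5G09300, an E1 subunit of the branched-chain keto acid dehydrogenase that degrades leucine, isoleucine and valine, ranged from 138 to 318 (median 254) and from 28 to 175 (median 51.9), with a difference of -1.85 ± 0.36 (adjusted p = 0.00239). These 2 genes overlapped between the groups. Without the arrays of extreme median AT3G62960 did not pass (-1.55, adjusted p = 0.159), and without the medium lacking hormone AT5G09300 did not (-1.51, adjusted p = 0.0892). AT1G22160 did not pass without the medium with kinetin alone.

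The other 4 lowered genes overlapped between the groups as well. AT1G78990 ranged from 25.1 to 322 (median 113) and from 6.94 to 68.3 (median 19.1), a difference of -2.52 ± 0.49 (adjusted p = 0.00273) that was -1.16 with a pseudocount of 64. AT4G33720, a secreted protein of the PR-1 family, ranged from 1856 to 12971 (median 7006) and from 493 to 2783 (median 1459), a difference of -2.09 ± 0.49 (adjusted p = 0.0227). AT2G19310 ranged from 308 to 1150 (median 697) and from 18.8 to 476 (median 263), with -2.07 ± 0.50 (adjusted p = 0.0259). AT5G67430 ranged from 128 to 699 (median 270) and from 8.55 to 585 (median 75.3), with -1.95 ± 0.49 (adjusted p = 0.0361), or -1.17 with a pseudocount of 64. The calls for AT4G33720, AT2G19310 and AT5G67430 were lost when any 1 of 8, 10 and 10 of the 16 arrays, respectively, was left out. Without the 6 arrays of extreme median AT2G19310 stood at -0.93 (adjusted p = 0.573). AT1G78990 did not pass without the medium lacking hormone or without that with IAA alone.

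Of 30 nitrate-response genes, 5 had a named probe set, 3 of these rose (0.572% of all probe sets did) and 0 fell (0.281%). The list's median log2 difference was 1.31 beside 0.11 over all probe sets. PGD1 and PGD3, the 6-phosphogluconate dehydrogenases of the oxidative pentose phosphate pathway, had the clearest rises. PGD1 ranged from 2368 to 4615 (median 3068) and from 7417 to 12071 (median 8628), with a log2 difference of 1.48 ± 0.20 (adjusted p = 7.96e-06). PGD3 ranged from 608 to 1414 (median 990) and from 1955 to 3730 (median 2336), with a difference of 1.39 ± 0.17 (adjusted p = 1.88e-06). Neither overlapped between the groups. HHO3, a GARP repressor of nitrogen starvation genes, ranged from 84.9 to 366 (median 164) and from 259 to 708 (median 380), with a difference of 1.20 ± 0.27 (adjusted p = 0.0142). Its call was lost without any 1 of 4 arrays, with 0.93 (adjusted p = 0.104) when replicate 1 of the medium without nitrogen or hormone was left out. The related repressors HHO1 (1.28 ± 0.34, adjusted p = 0.0702) and HHO2 (1.31 ± 0.38, adjusted p = 0.112) did not pass.

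Of 10 genes of nitrogen starvation and demand, 4 were named, 1 fell (0.281% of all probe sets did) and the median was -1.26. The count that fell was 2 after quantile normalization, 3 once each array's median entered the fit and 0 with the actin ratio in it. AT1G06830, a CC-type glutaredoxin known as CEPD1, ranged from 989 to 16197 (median 9022) without nitrogen and from 352 to 6083 (median 2560) with it. Its log2 difference was -1.38 ± 0.35 (adjusted p = 0.0432), a call that did not survive leaving out any 1 of 11 arrays (adjusted p up to 0.163). CEP5, a root-made CEP peptide, had values of 188 to 8605 (median 2199) and 21.3 to 2038 (median 621), and a difference of -2.11 ± 0.57 that did not pass (adjusted p = 0.074). NRT2.5, a high-affinity nitrate transporter of starved roots, had 368 to 1826 (median 1149) and 132 to 762 (median 479), and a difference of -1.15 ± 0.31 (adjusted p = 0.0648). AT2G47880, known as CEPD2, stood at -0.09 (adjusted p = 0.978). No gene of the lists for nitrogen assimilation (13 genes) or ammonium transport (5 genes) carried a name here. Nitrate reductase, nitrite reductase, glutamine synthetase and the AMT transporters could therefore not be picked out among the probe sets tested.

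CC-type glutaredoxins, small land-plant proteins that act with TGA transcription factors, changed in both directions. The list was written after the largest changes had been seen, so its counts are a description. Of 21 members 17 were named, 3 rose, 4 fell and 10 did not pass, with a median of 0.47, where 0.572% of all probe sets rose and 0.281% fell. The 4 that fell were AT5G11930, AT4G33040, AT3G62960 and AT1G06830, described above. AT4G15690 ranged from 3.26 to 189 (median 14.3) and from 15.9 to 1163 (median 451), and rose by 3.37 ± 0.72 on the log2 scale (adjusted p = 0.00746). Its mixed-nitrogen arrays were split: 681 and 603 without hormone, 300 and 15.9 with IAA, 1163 and 39.4 with kinetin, and 913 and 21.9 with both hormones. The 3 low arrays were the replicate 2 arrays of mixed nitrogen without ABA that also had extreme medians, and the part of the array median in this value was not tested. Without the 6 arrays of extreme median the difference was 5.16 (adjusted p = 8.08e-06). Without replicate 1 of mixed nitrogen with kinetin it was 2.76 and no longer passed (adjusted p = 0.0504). AT4G15680, next to it with no gene between, ranged from 14 to 260 (median 126) and from 223 to 940 (median 522), and rose by 2.31 ± 0.50 (adjusted p = 0.00941), a call lost without replicate 2 of the IAA medium without nitrogen (1.97, adjusted p = 0.0613). These genes lie in a run of close copies, and signal shared between their probe sets cannot be told apart. ROXY2, which acts in anther development, had separate groups at 50.4 to 342 (median 199) and 360 to 752 (median 545), and rose by 1.90 ± 0.29 (adjusted p = 7.43e-05). The members that did not pass ranged from -0.62 for GRX480 to 1.55 for AT4G15700.

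FLZ proteins were lowered or did not pass. This list, too, was written with the largest changes known. Of 12 members 10 were named, 0 rose and 3 fell, with a median of -0.26, beside 0.281% lower over all probe sets. Besides AT4G17670 and AT1G22160, AT5G47060 fell, from 3276 to 10838 (median 5563) down to 1258 to 2848 (median 2118), with no overlap and a difference of -1.48 ± 0.30 (adjusted p = 0.00496). The other 7 ranged from -0.94 for AT1G78020 (adjusted p = 0.336) to 0.36 for AT3G22550.

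**Figure D2:**
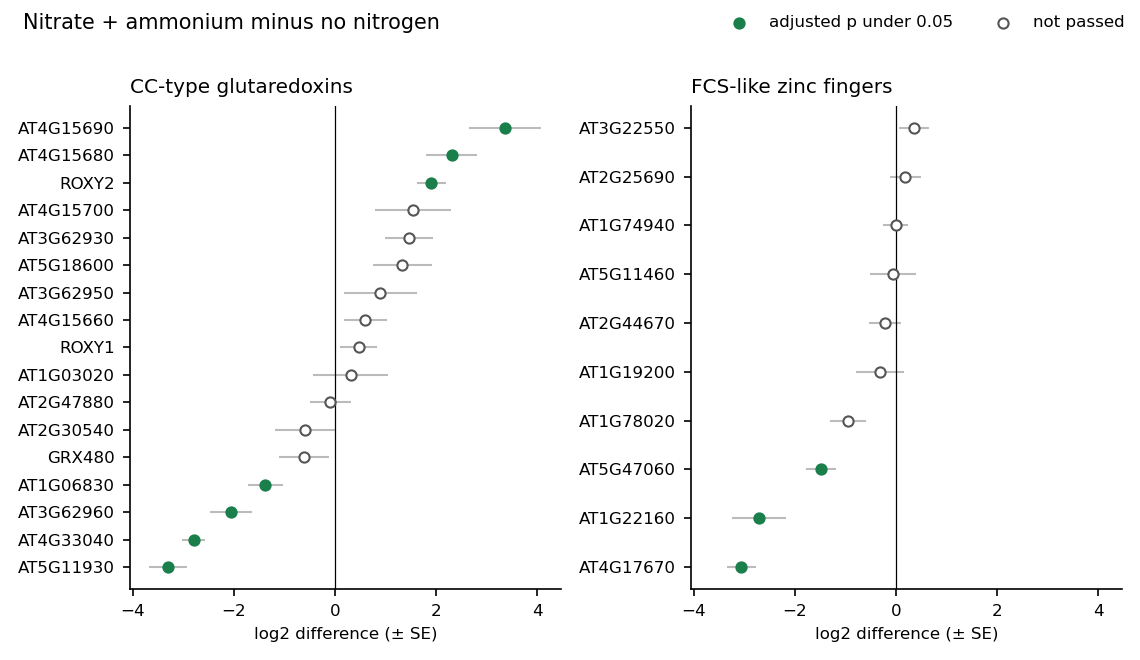
Log2 difference of mixed nitrogen minus no nitrogen (horizontal axis, bars ± SE) for the 17 named CC-type glutaredoxins and the 10 named FLZ genes; filled points passed an adjusted p of 0.05 and open points did not. The glutaredoxins run from -3.29 to 3.37 with 3 raised and 4 lowered, and the 3 FLZ genes that passed all lie below 0.

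Named genes of the other lists did not pass. The 7 named auxin-response genes of 21 had a median of 0.07 (smallest adjusted p = 0.752), and the 4 named cytokinin-response genes of 17 a median of -0.32. ARR15, a type-A response regulator of cytokinin signalling, was the lowest of these at -1.30 (adjusted p = 0.534). The 3 named genes of 16 in iron deficiency were BHLH101 at 0.12, IMA1 at 0.45 and F6H1 at -0.67 (adjusted p = 0.194). SIR, the sulfite reductase, stood at 0.32. EXPA7 (592 to 1223, median 659, with mixed nitrogen) and EXPA18 (350 to 992, median 727) differed by -0.08 and -0.24, and the green-tissue genes RCA, LHCB4.1 and LHCB4.2 by 0.19, 0.14 and 0.03. Named members of the nitrate and peptide transporter, class III peroxidase, cytochrome P450, glutathione transferase and UDP-glycosyltransferase families numbered 98. Of these 0 passed with limma, beside 0.853% of all probe sets, and 6 reached an unadjusted p under 0.05, beside 8.5%. Where so small a share passes, a count of 0 among 98 says little about these families. The transporters include NRT2.5, described above (-1.15, adjusted p = 0.0648). In that family 1 member fell on quantile-normalized values, and 1 fell when array medians were part of the fit.

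The nitrogen difference pointed the same way in all 4 hormone media for 129 of the 130 raised and 63 of the 64 lowered probe sets, against 17.9% of all probe sets tested. Since the average over the media chose these probe sets, this is a description. All 12 raised and all 12 lowered genes were among them. With 2 arrays against 2 within a medium, fewer probe sets passed: 16 without hormone (0.0703%), 12 with IAA (0.0528%), 4 with kinetin (0.0176%) and 13 with both (0.0572%). Of the 32 that passed in any medium, 29 also passed on average. AT4G33040 was the 1 named gene that passed in each medium, at -2.99 without hormone (adjusted p = 0.000731), -3.03 with IAA (0.00058), -2.69 with kinetin (0.00827) and -2.47 with both (0.0124). Without the arrays of extreme median it did not pass with kinetin (-2.41, adjusted p = 0.13) or with both (-2.26, adjusted p = 0.189), and in each of these 2 media 3 of its 4 arrays, left out in turn, ended the call. AT4G17670 passed in all media except that without hormone, at -2.48 (adjusted p = 0.103) there and -3.19, -3.19 and -3.37 with IAA, kinetin and both. Those 3 calls were lost without any 1 of 3, 3 and 2 of the 4 arrays (adjusted p up to 0.19, 0.432 and 0.232) and without the arrays of extreme median. AT1G64590 ranged from -2.25 with kinetin (adjusted p = 0.00827, lost without any 1 of 3 of the 4 arrays) to -1.64 with both.

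Among the raised genes the 4 media were less even in size. AT1G49500 had differences of 5.38 without hormone (adjusted p = 0.000539), 5.25 with IAA (0.00058), 2.67 with kinetin (0.605) and 3.90 with both (0.0425). Its 3 calls were lost without any 1 of 1, 2 and 3 of the 4 arrays of the medium (adjusted p up to 0.0531, 0.0805 and 0.533). AT1G80380 stood at 5.28 without hormone (adjusted p = 0.000539), a call lost without replicate 1 of the medium without nitrogen (3.31, adjusted p = 0.0781), and at 3.40, 2.80 and 2.78 in the other media. AT5G62720 stayed between 2.05 with kinetin (adjusted p = 0.182) and 2.89 with IAA (0.00228, lost without 1 of the 4 arrays at 0.151). AT4G15690 ran from 0.49 with kinetin to 5.27 without hormone. AT3G15440 was largest with IAA (4.47, adjusted p = 0.00058), AT1G67910 without hormone (3.76, adjusted p = 0.00747) and AT1G30820 with both hormones (3.08, adjusted p = 0.00921). AT3G29185 passed only in the medium without hormone (-3.72, adjusted p = 0.00953), with -0.82 on average (adjusted p = 0.438). Left out in turn, 1 of 4 arrays ended the IAA call of AT3G15440 (adjusted p = 0.117), 3 that of AT1G67910 (up to 0.245), 2 that of AT1G30820 (up to 0.183) and 3 that of AT3G29185 (up to 0.353). The tests of whether IAA or kinetin altered the nitrogen difference called 0 probe sets each (0.0%) with limma, and 745 and 953 reached an unadjusted p under 0.05. The differences between media named here are therefore not shown to exceed the spread between arrays. The median over all probe sets also differed between media, at -0.07, 0.09, 0.07 and 0.37 without hormone, with IAA, with kinetin and with both.

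**Figure D3:**
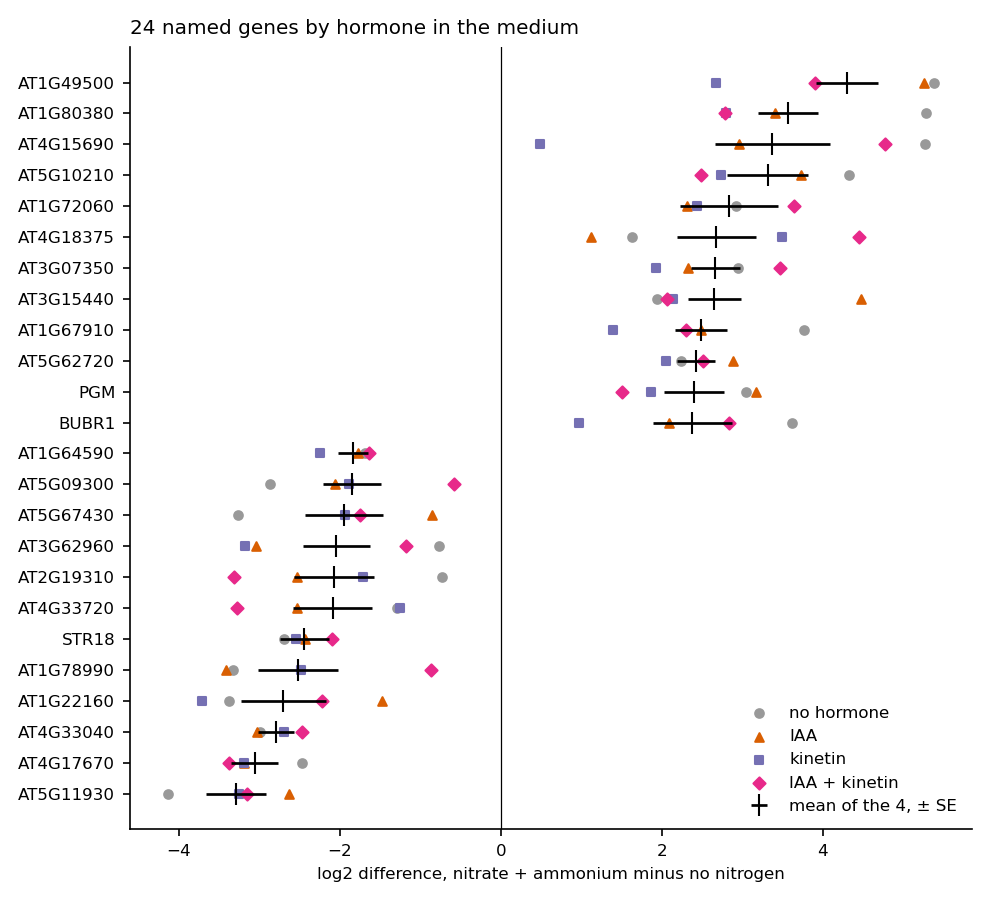
Log2 difference of mixed nitrogen minus no nitrogen (horizontal axis) for the 12 largest named increases and decreases in each hormone medium (symbols, 2 arrays against 2), with the mean over the 4 media ± SE as a black bar. Every symbol lies on the same side of 0 as its gene's mean; AT4G33040 keeps between -3.03 and -2.47 and AT5G62720 between 2.05 and 2.89, and AT4G15690 runs from 0.49 to 5.27.

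The single ions were compared with the same 8 arrays without nitrogen, so their differences share those arrays with the mixed-nitrogen difference and are given side by side. Nitrate only changed 106 probe sets (0.466%; 83 higher, 23 lower) and ammonium only 53 (0.233%; 42 higher, 11 lower). Of the 12 raised genes 10 passed with nitrate only and 3 with ammonium only, and of the 12 lowered genes 7 and 4. AT5G62720 differed by 2.47 with nitrate only (adjusted p = 2.24e-08) and 0.47 with ammonium only (0.784). Its intensities were 967 to 2272 (median 2005) in nitrate and 299 to 649 (median 500) in ammonium, so mixed nitrogen overlapped with nitrate and not with ammonium. AT1G49500 differed by 3.82 with nitrate and 1.88 with ammonium (adjusted p = 0.0206), AT1G80380 by 3.19 and 1.81 (0.0199), and AT5G10210 by 3.67 and 0.78 (0.842). PGM stood at 3.05 and 1.15, and BUBR1 at 2.77 and 0.09. Among the lowered genes AT4G17670 differed by -2.64 and -2.06 (adjusted p = 7.56e-05) and AT1G64590 by -1.72 and -1.46 (adjusted p = 1.88e-05), each passing with either ion. AT4G33040 stood at -2.31 with nitrate and -1.14 with ammonium (adjusted p = 0.00994), with intensities of 1082 to 1811 (median 1399) in nitrate and 2836 to 3533 (median 3079) in ammonium. Its 8 ammonium arrays lay between the 8 without nitrogen and the 8 with mixed nitrogen, apart from both.

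Mixed nitrogen was then compared directly with each ion at the same total of 1 mM. Mixed nitrogen minus nitrate only passed for 3 probe sets (0.0132%), all higher, and for none of the 24 genes with the largest differences. AT3G45730 read 933 to 3969 (median 2124) without nitrogen, 1266 to 3304 (median 1949) with nitrate, 3542 to 18449 (median 8825) with ammonium and 3021 to 12565 (median 10771) with both ions. It was higher in mixed nitrogen than in nitrate by 2.08 on the log2 scale (95% interval 1.35 to 2.81, adjusted p = 0.0241), and stood 0.02 above no nitrogen with nitrate, 2.09 with ammonium (adjusted p = 0.00176) and 2.10 with both (adjusted p = 0.000499). PDF2.1, a plant defensin, read 2665 to 8613 (median 4083) without nitrogen, 1973 to 8992 (median 4675) with nitrate, 4762 to 17202 (median 12509) with ammonium and 7180 to 19464 (median 16646) with both ions. In both genes the nitrate arrays lay in the range without nitrogen or close to it, and the medians with ammonium and with both ions were higher. Mixed nitrogen exceeded nitrate by 1.75 (1.12 to 2.38, adjusted p = 0.0241). The third, a probe set of GAT1_2.1, which encodes a glutamine amidotransferase-like protein, was higher by 2.92 ± 0.54 (adjusted p = 0.0295). It falls outside the naming rule, since a brighter probe set represents that gene, and was chosen after its values were seen. The calls for AT3G45730 and PDF2.1 were each lost without any 1 of 9 of the 16 arrays (adjusted p up to 0.109).

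Mixed nitrogen minus ammonium only passed for 31 probe sets (0.136%), of which 26 were higher and 5 lower in mixed nitrogen. Among the 12 raised genes 7 passed and among the 12 lowered 2. Those genes were chosen by their difference in the same mixed-nitrogen arrays, which favours values away from 0 here. Their counts and sizes are therefore a description. AT5G62720 was higher by 1.96 (95% interval 1.48 to 2.44, adjusted p = 1.77e-05), AT1G49500 by 2.42 (1.63 to 3.22, adjusted p = 0.00142), AT3G07350 by 1.89 (1.28 to 2.50, adjusted p = 0.00138), AT5G10210 by 2.54 (1.52 to 3.56, adjusted p = 0.0202), BUBR1 by 2.29 (1.29 to 3.28, adjusted p = 0.0365), AT1G80380 by 1.75 (1.00 to 2.51, adjusted p = 0.0346) and AT1G67910 by 1.70 (adjusted p = 0.0173). AT4G33040 was lower in mixed nitrogen, at -1.65 (-2.11 to -1.20, adjusted p = 6.61e-05), as was AT5G11930, at -1.82 (-2.58 to -1.06, adjusted p = 0.0293). PGD3 (0.99, adjusted p = 0.00456) and PGD1 (0.96, adjusted p = 0.0293) passed as well. HHO1 was higher in mixed nitrogen than in ammonium by 1.96 (1.26 to 2.65, adjusted p = 0.00456), with 389 to 710 (median 471) in nitrate, 74.3 to 369 (median 245) in mixed nitrogen, 12.3 to 147 (median 70.5) in ammonium and 23.8 to 192 (median 102) without nitrogen. Its nitrate arrays stood apart from all others, while mixed nitrogen minus nitrate was -1.13 (adjusted p = 0.674). AT5G05180 (-2.58, adjusted p = 0.0202) and AT1G03990 (-1.72, adjusted p = 0.0346) were lower in mixed nitrogen than in ammonium, and neither passed against no nitrogen (-1.12 and -1.39). Leaving out 1 array in turn ended the call for AT5G10210 in 8 of 16 cases, BUBR1 in 12, AT5G11930 in 9, AT5G05180 in 8 and AT1G03990 in 13 (adjusted p up to 0.23), and for AT1G49500 in 0. The 31 calls fell to as few as 11.

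For genes that did not pass between mixed nitrogen and nitrate, the intervals limit how large a difference could be. AT5G62720 stood at -0.05 (95% interval -0.53 to 0.43), AT1G49500 at 0.48 (-0.31 to 1.27), AT1G80380 at 0.38 (-0.38 to 1.14) and AT5G10210 at -0.35 (-1.37 to 0.67). For AT4G33040 the interval was -0.94 to -0.03 around -0.49, without adjustment. The interval covered 0 for 8 of the 12 raised and 7 of the 12 lowered genes. Some genes stood further from nitrate than those above. Differences from no nitrogen with mixed nitrogen and with nitrate only were 2.83 and 0.92 for AT1G72060 and 2.68 and 0.40 for AT4G18375. For AT2G19310 they were -2.07 and -0.54. None of these passed directly against nitrate. All were chosen on the same mixed-nitrogen arrays, which favours differences away from 0. Against the midpoint of the single ions, mixed nitrogen passed for 0 probe sets (0.0%) with limma, and 917 reached an unadjusted p under 0.05.

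**Figure D4:**
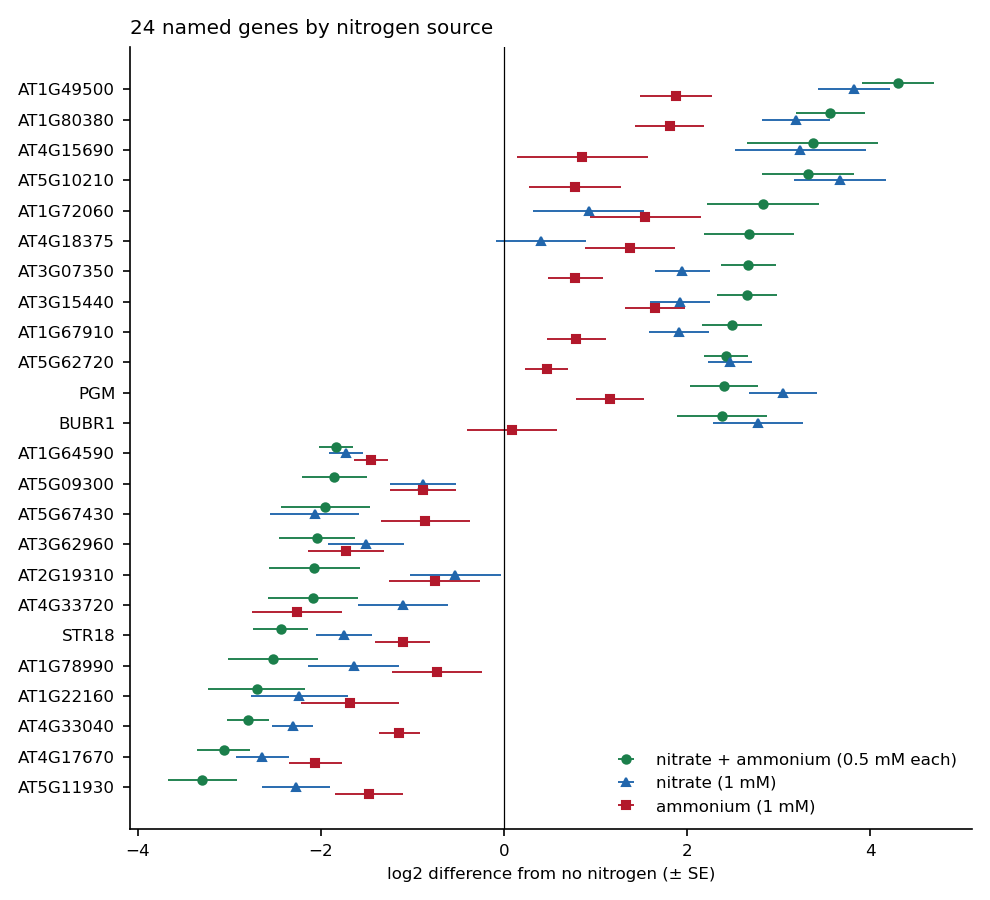
Log2 difference from no nitrogen (horizontal axis, bars ± SE) for the same 24 genes with nitrate and ammonium (green circles), nitrate only (blue triangles) and ammonium only (red squares), each 8 arrays against the same 8 without nitrogen. For AT5G62720 mixed nitrogen (2.42) lies on nitrate (2.47) and away from ammonium (0.47), and for AT1G64590 the values are -1.84, -1.72 and -1.46.

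In media with 1 µM ABA, other arrays gave the same comparison. There 31 probe sets passed (0.136%), 20 higher and 11 lower, and 29 of them were among the 194 that passed without ABA (93.5% of the 31 and 14.9% of the 194), each in the same direction. Of the 130 raised probe sets 124 (95.4%) were also positive with ABA and of the 64 lowered 62 (96.9%) were negative, while 61.5% of all probe sets had the same sign in both. The median difference of the raised was 1.65 without ABA and 0.76 with it, and of the lowered -1.38 and -0.71. The members were chosen for their difference without ABA, so these sizes are a description. Of the 24 genes, 5 raised and 4 lowered passed with ABA. AT5G62720 stood at 2.28 (adjusted p = 3.94e-07), AT5G10210 at 3.80 (3.71e-05), AT1G49500 at 2.96 (3.71e-05), AT1G67910 at 1.96 (0.00145) and AT1G80380 at 1.78 (0.0313). AT4G17670 stood at -1.90 (adjusted p = 0.000479), AT4G33040 at -1.41 (0.00081), AT1G64590 at -1.18 (0.00081) and AT3G62960 at -2.07 (0.0206). The values for PGM (0.22), AT4G18375 (-0.36), AT5G09300 (0.07), STR18 (-0.45) and AT5G11930 (-0.77) were small and did not pass. The test of the difference between the media with and without ABA called 0 probe sets (0.0%) with limma, at 716 with an unadjusted p under 0.05. For AT5G11930 it gave 2.52, for STR18 1.99 (both adjusted p = 0.511) and for PGM -2.18 (adjusted p = 0.582).

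**Figure D5:**
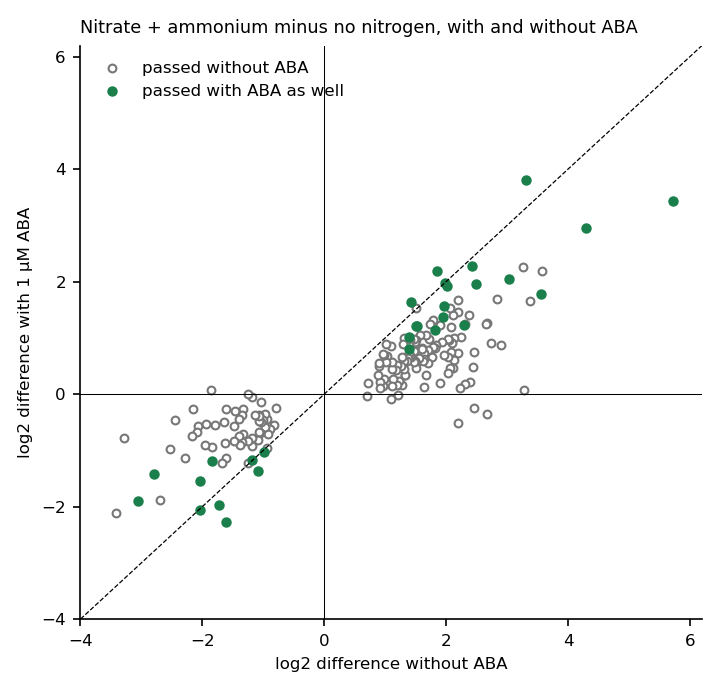
Log2 difference of mixed nitrogen minus no nitrogen with 1 µM ABA (vertical axis) against that without ABA (horizontal axis) for the 194 probe sets that passed without ABA; filled points passed in both, and the dashed line marks equal values. The 29 filled points lie where both values have the same sign, and most points lie nearer 0 on the vertical axis, with medians of 0.76 and -0.71 against 1.65 and -1.38.

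Probe sets of the same gene did not always move together. One probe set of AT3G57160 ranged from 13.7 to 75.2 (median 30.1) without nitrogen and from 163 to 855 (median 297) with it, a difference of 3.26 ± 0.57 (adjusted p = 0.000589), while the brighter probe set of the same gene, at 660 to 2577 and 870 to 2503, gave 0.31 ± 0.27 (adjusted p = 0.829). For GAT1_2.1 the probe set described above ranged from 11.7 to 42.8 (median 20.3) and from 25.3 to 805 (median 166), with 2.91 ± 0.54 (adjusted p = 0.00123), while the brighter one gave 0.54 ± 0.66 (adjusted p = 0.889). AT2G30600 gave 1.47 (adjusted p = 0.00648) on 1 probe set and -0.15 (adjusted p = 0.972) on the other. These genes are reported as uncertain. The largest increase of all belonged to a probe set with no gene name here, which went from 4.1 to 30.6 (median 7.72) to 218 to 996 (median 608), a difference of 5.72 ± 0.60 (adjusted p = 6.08e-08) with no overlap. It stood at 5.88 with nitrate only, 1.23 with ammonium only and 3.43 with ABA (adjusted p = 0.00272). The largest decrease was likewise unnamed, at -3.41 (adjusted p = 0.000499).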

How the data were processed

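Roots were profiled on ATH1-type oligonucleotide arrays, per the labels' protocols after Trizol extraction and biotin labelling. The authors' deposited table holds 1 linear intensity per probe set and array; the processing software is not given in the sources used here, and the trimmed mean (2% off each end) is 500 on every array, so the deposited intensities were scaled per array. Gene names came from the platform annotation and RefSeq TAIR10.1: of 22746 non-control probe sets 13513 had 1 name, 503 several and 8730 none. No sequences are shown.

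Values were taken as log2(intensity + 1). The R package limma (version 3.58.1, under R 4.3.3) was given the 32 group means of all 64 arrays (empirical Bayes, 32 residual degrees of freedom), with p-values adjusted by Benjamini-Hochberg over all probe sets at 0.05. All groups share 1 estimate of the spread. The fit was tested on simulated data. Intervals are 95% and not adjusted. Replicate numbers were not treated as pairs. Between groups of this comparison, the differences of replicate 1 from replicate 2 correlated at -0.20 to 0.30, over 0.1 in 10 of 28 pairs of groups. Over all groups 164 of 496 pairs exceeded 0.1. Whether same-numbered arrays shared a batch was not tested.

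Named genes are the 12 largest increases and decreases among named probe sets that passed, members of the gene lists, and the largest in other comparisons; a gene with several probe sets is represented by the brightest. The members and lists were chosen with earlier results of these data known. Alternatives were the pseudocount, the normalization, a filter on dim probe sets, array median or actin ratio as a covariate, array weights, a replicate block, and leaving out arrays, each hormone medium or arrays of other groups. Leaving out a hormone medium was added after seeing the data. Precision is limited by the number of arrays.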

Additional observations from a re-analysis of the deposited data

Results flagged for a closer look

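Within 8 arrays of a nitrogen medium, which span the 4 hormone media, 11 of 156 groups checked (78 genes, both media) held an array far from the other 7 by Dixon's test. Chance gives about 1 in 20 groups. Values are log2 intensities. Without nitrogen, AT1G80380 was lowest at 5.02 in replicate 1 without hormone, AT2G19310 at 8.27 and SIR at 4.66 in replicate 2 without hormone. Also without nitrogen, BUBR1 was highest at 6.90 in replicate 2 with kinetin, and PDF2.1 at 13.07 in replicate 2 with both hormones. With mixed nitrogen, PGM was lowest at 6.88 and AT3G62930 at 7.17 in replicate 2 with both hormones, AT4G15660 at 4.90 in replicate 2 with kinetin, and HHO1 at 6.24 in replicate 2 with IAA. Replicate 1 of mixed nitrogen with IAA held the lowest value of AT1G64590, 8.19, and the highest of the auxin-conjugating enzyme gene GH3.5, 11.71.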

How the results depend on the processing

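All 194 probe sets kept their direction under the alternatives run, of which the filter on dim probe sets tested only 178 of them. The count of 194 stayed within 1.5 times of its value except at 305 with the array median as a covariate, 48 with only the arrays compared (45 of the 194 among them) and 123 without the medium with both hormones (leaving out a medium was chosen after seeing the data). Without the 6 arrays of extreme median it was 149, with 113 of the 194 still called. Of 31 named mixed-nitrogen calls, 24 passed without any 1 array, and 14 under every setting. Of 27 named calls in the other comparisons, 24 were lost without some 1 array. The cause of the shifts below was not tested.

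The 16 calls without hormone became 28 with a pseudocount of 64, 30 with quantile normalization, 42 with the median covariate, 28 without the dimmest 40% of probe sets, 28 with array weights, 27 without the extreme arrays and 0 with only the arrays compared. The 12 with IAA became, in the same order, 21, 27, 42, 21, 5, 32 and 0. The 4 with kinetin became 9, 7, 12, 7 and 12, and 0 with only the arrays compared. The 13 with both hormones became 26 (pseudocount), 28 (median covariate), 33 (dim filter), 7 (weights), 8 (extreme arrays) and 0 (only the arrays compared). Mixed minus nitrate, 3, became 11, 5, 14, 6, 1, 0 and 0 in the order used first. Mixed minus ammonium, 31, became 51 with the median covariate, 15 with the actin covariate and 2 with only the arrays compared. The test of ABA called 2 with a pseudocount of 64 and 2 with the median covariate. The midpoint comparison called 1 with the pseudocount, 4 with the median covariate and 3 with the dim filter.

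The main fit did not treat replicate numbers as pairs, and whether same-numbered arrays shared a batch was not tested. With the replicate block 258 probe sets passed, including all 194, and 27 passed without hormone, 9 with kinetin, 36 with both, 2 in the test of ABA and 5 against the midpoint.

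Leaving out 1 array in turn gave 147 to 269 for mixed nitrogen, 2 to 13 without hormone, 3 to 70 with IAA, 2 to 10 with kinetin, 3 to 97 with both, 0 to 14 for mixed minus nitrate, 11 to 30 for mixed minus ammonium, 0 to 3 for the midpoint, 0 to 1 and 0 to 2 for IAA and kinetin as modifiers, and 0 to 0 for ABA. Mixed minus ammonium moved past 1.5 times in 13 of 16 cases, mixed minus nitrate in 12 of 16 (to 14 without replicate 2 of nitrate with kinetin, and to 11 and 6 without replicate 1 of mixed nitrogen with IAA and with both hormones, otherwise to 0) and the midpoint in 5 of 24. In single media, counts past 1.5 times came without hormone from replicate 2 without nitrogen (4) and replicates 1 and 2 of mixed nitrogen (2 and 8). With IAA they came from replicates 1 and 2 without nitrogen (3 and 7) and with mixed nitrogen (70 and 25). With kinetin they came from replicate 1 without nitrogen (7) and replicates 1 and 2 of mixed nitrogen (10 and 2), and with both from replicate 1 without nitrogen (5) and replicates 1 and 2 of mixed nitrogen (97 and 3).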
